A study of Mus musculus with 24 samples.

Results

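Emcn, Sox18, Kdr, Tie1, Robo4, Eng, Esam, Cdh5 and Pecam1 are genes that endothelium and blood stem cells share, and their messenger RNA was followed here in blood progenitors of the mouse. They were chosen by gene symbol alone, as 9 of the 55487 genes in the count table, and all 9 passed the filter on low counts. Cdh5 passed it only through the libraries from before birth. The 24 bulk RNA-seq libraries were made from LSK cells, a sort for lineage-negative, Sca1-positive, KIT-positive cells in which blood stem cells and early progenitors are found. The libraries fall into 6 groups of 4: ME and control cells at each of 3 ages, E16 (before birth), P14 (after birth) and 8wk. ME cells came from MLL::ENL Tet-On-ME mice and carry an inducible fusion between the MLL and ENL proteins, found in leukaemia, which was switched on in culture. The cells were harvested after 48 h of culture. The genotype of the controls is given only as control, and whether they carried a part of the transgene or received the inducer is not given in the sources used here. E16 cells came from liver and P14 and 8wk cells from bone marrow, so age and tissue cannot be told apart wherever E16 is compared with a later age. The cells had left their tissue for culture before RNA was taken. The labels do not say whether the 4 replicates of a group are separate animals, so the spread that p-values rest on may be technical.

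Blood stem cells arise in the embryo from a specialised endothelium, and the 2 lineages go on sharing surface molecules, signalling receptors and transcription factors after they part. In endothelium these genes serve cell junctions, growth factor sensing and vessel shape. In blood several of them mark cells near the top of the hierarchy. Some, Esam, Pecam1 and Tie1 among them, are also carried by platelets and their precursors. A level in LSK cells therefore does not by itself tell which cells hold the RNA.

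RefSeq (GRCm38.p6) promoter windows, 250 bases before to 50 after the annotated start, were at hand for 5 of the 9 genes. Those of Emcn, Robo4, Tie1 and Kdr are shown because these 4 genes were higher in ME cells at 1 or more ages. The letters GGAAGT, the core of a site for ETS transcription factors, were searched on both strands, and capitals mark each match. The windows are chr3:137340828-137341127 on the plus strand for Emcn, chr9:37401722-37402021 on the plus strand for Robo4, chr4:118489800-118490099 on the minus strand for Tie1 and chr5:75978406-75978705 on the minus strand for Kdr, each written 5′ to 3′ along its gene.
Emcn: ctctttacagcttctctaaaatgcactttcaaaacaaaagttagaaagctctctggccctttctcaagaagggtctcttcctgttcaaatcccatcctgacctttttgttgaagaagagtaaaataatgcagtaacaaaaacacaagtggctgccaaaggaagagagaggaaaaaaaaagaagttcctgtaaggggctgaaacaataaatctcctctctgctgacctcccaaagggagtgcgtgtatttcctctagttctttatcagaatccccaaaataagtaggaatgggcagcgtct
Robo4: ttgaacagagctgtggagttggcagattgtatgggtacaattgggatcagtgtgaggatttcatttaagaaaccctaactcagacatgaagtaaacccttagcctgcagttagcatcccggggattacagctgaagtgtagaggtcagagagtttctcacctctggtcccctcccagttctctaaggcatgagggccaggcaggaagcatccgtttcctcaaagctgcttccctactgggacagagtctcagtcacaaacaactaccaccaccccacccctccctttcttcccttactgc
Tie1: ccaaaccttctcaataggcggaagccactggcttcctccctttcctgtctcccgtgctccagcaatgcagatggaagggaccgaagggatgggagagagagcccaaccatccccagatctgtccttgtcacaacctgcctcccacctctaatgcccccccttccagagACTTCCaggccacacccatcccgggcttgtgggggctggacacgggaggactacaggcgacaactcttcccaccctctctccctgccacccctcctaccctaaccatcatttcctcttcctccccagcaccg
Kdr: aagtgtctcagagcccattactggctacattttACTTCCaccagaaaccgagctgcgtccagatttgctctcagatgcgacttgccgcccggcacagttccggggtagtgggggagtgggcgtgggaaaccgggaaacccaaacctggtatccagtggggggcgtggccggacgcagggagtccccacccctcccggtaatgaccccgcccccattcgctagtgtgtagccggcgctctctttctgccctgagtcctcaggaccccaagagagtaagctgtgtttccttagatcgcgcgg
In Tie1 the match begins at position -82 from the start and in Kdr at position -217, in each case as ACTTCC, that is, GGAAGT on the other strand. The Emcn and Robo4 windows do not hold these letters, and the window of Eng, the other gene with one, holds a match at -53. The motif was thus in 3 of 5 windows, against 23.8% of all 32851 promoter windows of this length. Of the 5 other motifs searched on both strands, the E-box CAGCTG was in the Robo4 window only (16.3% of all windows). The letters AGATAA, for Gata2 and its relatives, are in 11.2% of all windows and in 0 of these 5. TGATTNAT, for HOX proteins with PBX, is in 3.22% of all and in 0 of the 5. ACAATG, for SOX proteins, is in 12.6% and TGTGGT, for RUNX proteins, in 16.8% of all windows, and each is in 0 of the 5. Matches describe these letters and do not show binding.

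Library totals ran from 33.9 to 69.3 M (mega) counts, with a median of 47.1 M. Markers of the sorted cells were present in every group, and Kit and Ly6a differed between groups. In E16, P14 and 8wk control cells Kit averaged 465, 603 and 487 CPM (counts per M library counts), Ly6a, which encodes Sca1, 660, 85.5 and 140 CPM, and Ptprc, the pan-blood marker CD45, 186, 180 and 219 CPM. In ME cells Kit averaged 645, 650 and 1460 CPM and Ly6a 530, 113 and 292 CPM at the 3 ages, and both were called higher than in controls at 8wk (adjusted p = 2.33e-06 and 0.0055). Ly6a was called lower in P14 and 8wk controls than in E16 controls (log2 fold changes of -2.95 and -2.24, adjusted p = 3.09e-07 and 4.90e-06). Of 12 markers of the sorted cells, 4 were called higher and 1 lower in ME cells at E16, and 3 and 1 at P14. At 8wk 4 were called higher and 1 lower. Over all genes tested, 13.3%, 12.7% and 14.2% were called higher and 8.47%, 9.35% and 14.3% lower. At E16 Hlf, Mecom and Procr averaged 200, 125 and 33.3 CPM in ME and 77.2, 24 and 12 CPM in control cells. Cd34 and Slamf1 went the other way, at 819 and 3.3 against 1000 and 8.89 CPM. The part of these differences in the values of the 9 genes was not tested. The 4 libraries below were least like the rest of their group: E16 ME replicate 4, 8wk ME replicates 1 and 4, and 8wk control replicate 1 correlated at 0.982, 0.985, 0.981 and 0.986 with the mean of the other 3 libraries, where the next lowest library stood at 0.989. They were picked after the data were seen, and after a first rule, a fixed minimum correlation, had selected no library, and results are given with and without them. E16 ME replicate 4 was the highest of its group for 7 of the 9 genes, 8wk ME replicate 4 was also the highest for 7, and 8wk ME replicate 1 was the lowest for 7. Summed monocyte and macrophage markers, 10 genes, were 107 CPM in E16 ME replicate 4 against 484 to 600 in the other 3, 178 in 8wk ME replicate 4 against 955 to 1150, and 860 in 8wk control replicate 1 against 173 to 204.

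**Figure D1:**
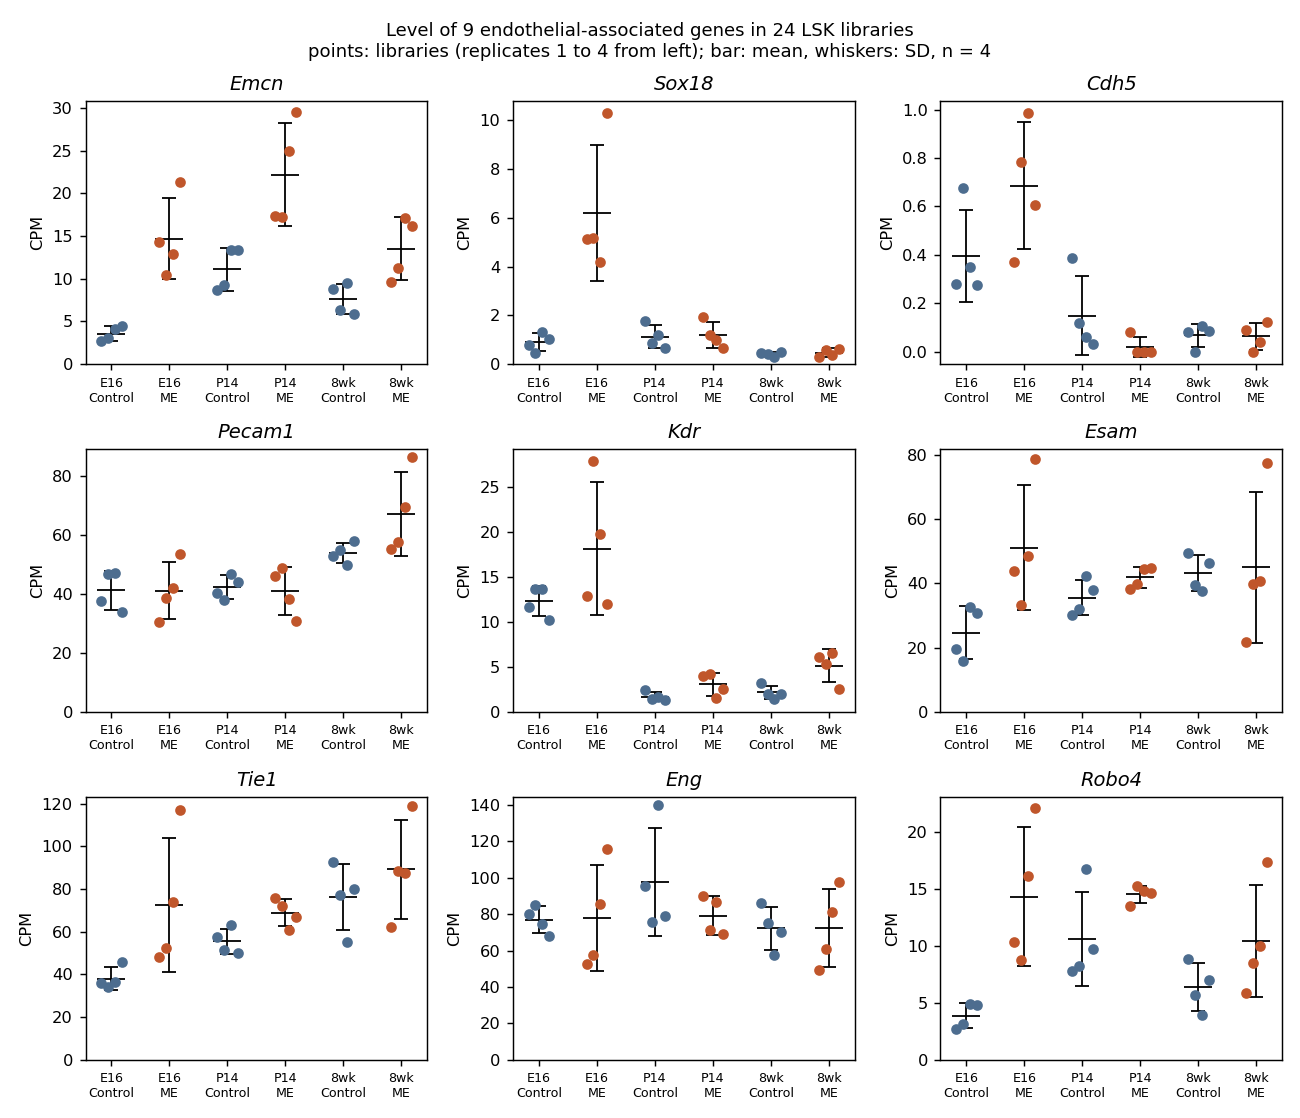
Level of each of the 9 genes in counts per M library counts (CPM, linear vertical axis, a scale of its own per gene) in the 24 libraries, grouped on the horizontal axis by age and by control or ME. Points are the 4 libraries of a group, the bar is their mean and whiskers are the SD; for Emcn, Sox18, Robo4, Tie1 and Esam all 4 E16 ME points lie above all 4 E16 control points.

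At E16, ME cells held more RNA of 5 of the 9 genes than control cells: Sox18, Emcn, Robo4, Esam and Tie1. Sox18 was 6.84-fold higher, Emcn 4.15-fold, Robo4 3.7-fold, Esam 2.07-fold and Tie1 1.91-fold. No gene of the 9 was called lower, and Kdr, Cdh5, Pecam1 and Eng did not pass the test. Of all 18931 genes tested, 21.8% were called and 13.3% were called higher, at an adjusted p under 0.05. The median log2 fold change (ME minus control) of the 9 genes was 0.93, against 0.02 over all genes tested.

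Emcn (ENSMUSG00000054690, chr3:137341067-137432185, plus strand, GRCm38) encodes endomucin, a sialomucin of venous and capillary endothelium that also marks blood stem cells. In replicates 1 to 4 it stood at 14.3, 10.4, 12.9 and 21.3 CPM in E16 ME cells and at 2.67, 3.01, 4.05 and 4.46 CPM in E16 control cells. The lowest ME library was above the highest control library. On the log2 scale ME cells were higher by 2.05 ± 0.27 (SE, adjusted p = 1.25e-05).

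Sox18 (ENSMUSG00000046470, chr2:181669836-181671640, minus strand) encodes a SoxF transcription factor of developing blood and lymph vessels. It measured 5.12, 5.18, 4.17 and 10.3 CPM in the E16 ME libraries and 0.785, 0.461, 1.33 and 1.02 CPM in the E16 control libraries. The groups did not overlap, and ME replicate 4 was well above the other 3. Its log2 fold change was 2.77 ± 0.4 (SE, adjusted p = 3.60e-05), and without ME replicate 4 it was 2.41 (adjusted p = 1.35e-04).

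Among the receptors, Robo4 (ENSMUSG00000032125, chr9:37401897-37415115, plus strand), a Roundabout receptor that steadies the vessel wall and takes part in holding stem cells in marrow, stood at 10.3, 8.77, 16.1 and 22.1 CPM in E16 ME cells. The E16 control libraries held 2.7, 3.14, 4.86 and 4.79 CPM, all below the ME libraries. Its log2 fold change was 1.89 ± 0.34 (SE, adjusted p = 4.40e-04). Tie1 (ENSMUSG00000033191, chr4:118471191-118490061, minus strand), an orphan receptor tyrosine kinase that tunes angiopoietin signalling through its relative Tek, measured 48, 52.2, 73.7 and 117 CPM in ME and 35.9, 33.9, 36.6 and 45.7 CPM in control cells. The 2 groups were close at their edges, 48 against 45.7 CPM, but did not overlap. For Tie1 the log2 fold change was 0.93 ± 0.22 (SE, adjusted p = 0.0044) and 0.61 (adjusted p = 0.0304) without ME replicate 4.

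Kdr (ENSMUSG00000062960, chr5:75932827-75978458, minus strand), the main signalling receptor for VEGF and a marker of the earliest blood and vessel precursors, stood at 12.9, 27.9, 19.8 and 12 CPM in E16 ME cells. In control cells it stood at 11.7, 13.7, 13.6 and 10.2 CPM. The groups overlapped, with ME replicate 2 far above the control range, and the log2 fold change of 0.56 ± 0.33 (SE, 95% interval -0.12 to 1.25) had an adjusted p of 0.236. Eng (ENSMUSG00000026814, chr2:32646595-32682669, plus strand) encodes endoglin, a co-receptor for BMP and TGF-beta ligands. Its ME libraries, 52.5, 57.5, 85.8 and 116 CPM, lay on both sides of its control libraries, 80.1, 85.1, 74.5 and 67.9 CPM. The log2 fold change of Eng was 0.02 ± 0.23 (SE, 95% interval -0.47 to 0.5, adjusted p = 0.969). Eng shares 61 of its 4048 exon bases with Fpgs on the opposite strand, and since the strand setting of the counting is not given, reads in those bases cannot be assigned.

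Of the junction and adhesion molecules, Esam was called higher, and Pecam1 and Cdh5 were not called. Esam (ENSMUSG00000001946, chr9:37528078-37538319, plus strand), an immunoglobulin-family molecule of tight junctions and a marker of blood stem cells, stood at 43.8, 33.2, 48.6 and 78.7 CPM in E16 ME cells and at 19.5, 15.9, 32.6 and 30.6 CPM in control cells. The lowest ME library, 33.2 CPM, was just above the highest control library, 32.6 CPM. Its log2 fold change was 1.05 ± 0.3 (SE, adjusted p = 0.0137). The call was lost when ME replicate 4 was left out (0.77, adjusted p = 0.0782) and when control replicate 2 was left out (0.89, adjusted p = 0.0546). Esam and Robo4 lie on the same strand of chromosome 9 with 113.0 kb between them.

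Pecam1 (ENSMUSG00000020717, chr11:106654217-106750628, minus strand), an adhesion molecule of endothelium, platelets and leukocytes, measured 30.3, 38.5, 42 and 53.4 CPM in E16 ME cells and 37.5, 46.7, 47 and 33.8 CPM in control cells. The ranges overlapped almost fully, and the log2 fold change was -0.01 ± 0.17 (SE, 95% interval -0.36 to 0.34, adjusted p = 0.984). Cdh5 (ENSMUSG00000031871, chr8:104101625-104144511, plus strand) encodes VE-cadherin, the cadherin that holds endothelial cells together. It was under 1 CPM throughout, at 0.369, 0.782, 0.986 and 0.605 CPM in ME cells and 0.279, 0.676, 0.349 and 0.275 CPM in control cells. For Cdh5 the log2 fold change was 0.81 ± 0.72 (SE, 95% interval -0.69 to 2.31, adjusted p = 0.462), so that a rise or a fall could not be told at this depth.

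Markers of other cells moved in the same comparison. Of 16 endothelial markers 10 were tested, and 3 were called higher in E16 ME cells: Plvap (2.12 against 0.241 CPM), Ecscr (15.1 against 8.92 CPM) and Rasip1 (1.83 against 0.505 CPM). Their summed level was 25.5 to 29.8 CPM in ME and 17.7 to 20.1 CPM in control libraries. The 16 markers were uneven in level. Flt1 averaged 5.85 CPM in ME and 5.81 CPM in control cells and Flt4 1.29 and 0.589 CPM, neither called. Lyve1 had no counts in E16 ME cells and Cldn5 none in E16 controls, while Cldn5, Clec14a, Mmrn2 and Sele averaged 0.0339, 0.0112, 0.00576 and 0.0201 CPM in ME cells. Of 12 megakaryocyte and platelet markers 11 were tested, of which 8 were called lower and 0 higher, and 0 of the 12 were at 0 in either group. Their sum was 234 to 366 CPM in ME and 549 to 1100 CPM in control libraries, so this list moved against Emcn, Sox18, Robo4, Tie1 and Esam. The part of these markers in the results was not tested. In bulk RNA, fewer cells of a type and less RNA per cell cannot be told apart.

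Without the 4 libraries least like their group, the same 5 genes were called at E16. All 5 had separate ranges in the full data, where 14.5% of all genes tested had all 4 ME libraries above all 4 controls.

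**Figure D2:**
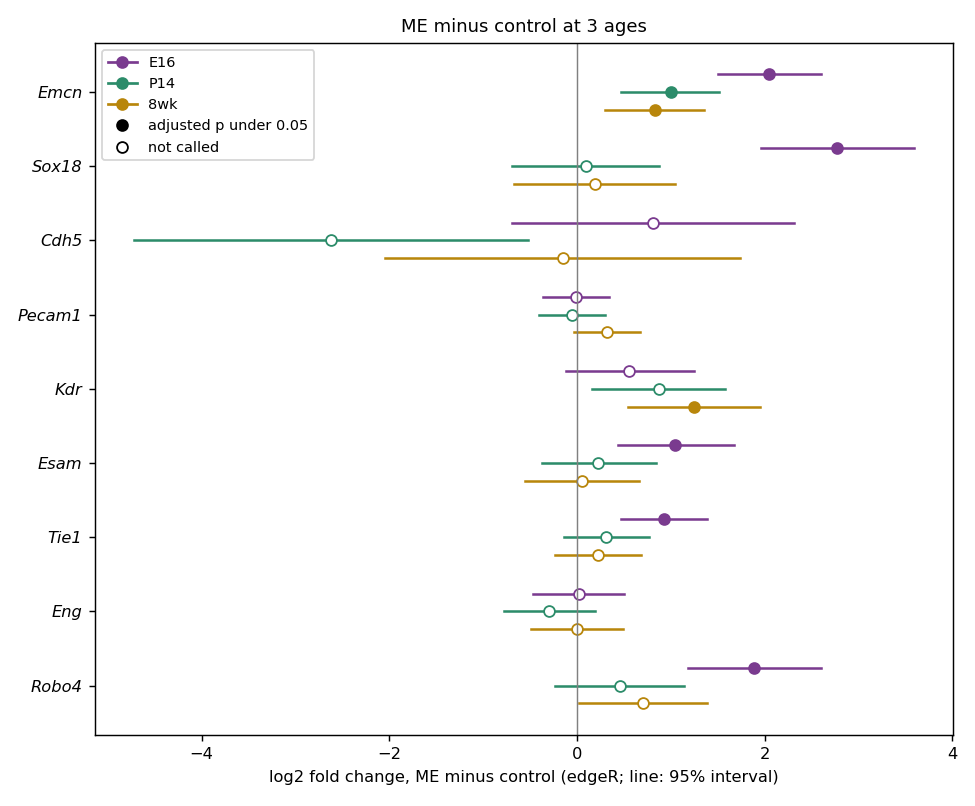
Log2 fold change, ME minus control, for the 9 genes (rows) at E16, P14 and 8wk (colours), from edgeR, with lines for 95% intervals. Filled circles mark an adjusted p under 0.05 and open circles the rest; 5 genes are filled at E16, 1 at P14 (Emcn) and 2 at 8wk (Emcn and Kdr).

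At P14, in neonatal marrow, Emcn was the 1 gene of the 9 that passed the test, 2-fold higher in ME cells. Of all genes tested 22% were called and 12.7% were called higher. The median log2 fold change of the 9 genes was 0.23, against 0.03 over all genes. Sox18, 6.84-fold higher at E16, measured 1.92, 1.18, 0.993 and 0.645 CPM in P14 ME cells and 1.76, 0.867, 1.17 and 0.658 CPM in P14 control cells, nearly the same range.

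Emcn stood at 17.3, 17.2, 24.9 and 29.5 CPM in P14 ME cells and at 8.7, 9.26, 13.3 and 13.3 CPM in P14 controls. The groups did not overlap (14.1% of all genes tested were separate in this direction), and the log2 fold change was 1 ± 0.25 (SE, adjusted p = 0.00681). For Kdr the ME libraries held 4.01, 4.19, 1.49 and 2.58 CPM and the controls 2.41, 1.42, 1.61 and 1.27 CPM. ME replicate 3 fell within the control range, and the log2 fold change of 0.87 ± 0.34 (SE) had an adjusted p of 0.0712. Same-numbered ME and control libraries deviated together at P14 (r of 0.13 to 0.34). Some differently numbered ones did so as much, such as ME replicate 3 with control replicate 4 (0.32), so a pairing by number is not settled. Kdr was also fitted with the replicate number as a block. The blocked log2 fold change was 0.86 (adjusted p = 0.0481) over all 24 libraries and 0.82 (adjusted p = 0.0632) over the P14 libraries alone, which puts Kdr on either side of the threshold. Without the 4 libraries least like their group, none of them from P14, its adjusted p was 0.0333, and 2 of the 9 genes, Emcn and Kdr, were called.

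Robo4 and Esam, both called at E16, did not pass at P14. Robo4 measured 13.5, 15.2, 14.8 and 14.6 CPM in ME and 7.8, 8.2, 16.7 and 9.67 CPM in control cells. Only control replicate 3 reached the ME range, and the log2 fold change was 0.46 ± 0.33 (SE, 95% interval -0.23 to 1.14, adjusted p = 0.353). Esam stood at 38.2 to 44.6 CPM in ME and 30 to 42.1 CPM in control libraries (0.23 ± 0.29, SE, adjusted p = 0.622). Tie1 stood at 60.9 to 75.6 and 50.1 to 62.9 CPM (0.31 ± 0.22, SE, adjusted p = 0.34).

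Cdh5 was close to the limit of detection at P14. ME replicate 1 held 4 counts (0.0801 CPM) and replicates 2, 3 and 4 held 0, where 3 counts would have been 0.0771, 0.0596 and 0.0691 CPM. The controls held 18, 8, 4 and 2 counts, or 0.387, 0.12, 0.0602 and 0.0338 CPM, and the difference did not pass in edgeR (adjusted p = 0.0671) but did in DESeq2 (adjusted p = 0.0312). Pecam1, at 30.7 to 48.6 CPM in ME and 37.7 to 46.6 CPM in control cells, and Eng, at 69.1 to 90 and 75.4 to 140 CPM, overlapped between groups and had adjusted p-values of 0.886 and 0.401. Of the 10 endothelial markers tested, 4 were called higher at P14, and the list summed to 12.3 to 16.7 CPM in ME and 7.7 to 8.88 CPM in control libraries, with Sele at 0 in ME cells and Mmrn2 and Aplnr at 0 in controls. Of 10 monocyte and macrophage markers 2 were called higher and 0 lower, with sums of 76.2 to 164 CPM in ME and 64.5 to 123 CPM in control libraries, and C1qa and C1qb were at 0 in controls. Of 11 megakaryocyte and platelet markers tested 1 was called higher and 0 lower, with sums of 211 to 312 and 288 to 360 CPM, and Gp1bb was at 0 in controls. The part of these markers in the Emcn and Kdr values was not tested.

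At 8wk, in adult marrow, Kdr was 2.38-fold and Emcn 1.77-fold higher in ME cells, and the other 7 genes did not pass. Of all genes tested 28.5% were called and 14.2% were called higher. The 9 genes had a median log2 fold change of 0.23, against -0.02 over all genes. Without the 4 libraries least like their group the called genes were again Emcn and Kdr.

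Emcn stood at 9.65, 11.2, 17.1 and 16.2 CPM in 8wk ME cells and at 8.79, 6.34, 9.53 and 5.86 CPM in 8wk controls. The groups were separate by a narrow margin, 9.65 against 9.53 CPM (12% of all genes tested were separate in this direction). The log2 fold change was 0.83 ± 0.26 (SE, adjusted p = 0.0185). Leaving out ME replicate 3 or 4, or control replicate 2 or 4, ended the call, with adjusted p-values of 0.0693, 0.051, 0.0617 and 0.0674.

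Kdr stood at 6.09, 5.33, 6.58 and 2.53 CPM in 8wk ME cells and at 3.21, 1.94, 1.48 and 1.97 CPM in controls. ME replicates 1 to 3 were above every control, while ME replicate 4 lay inside the control range. The log2 fold change was 1.25 ± 0.34 (SE, adjusted p = 0.0089) and 1.73 (adjusted p = 0.00142) without the 4 libraries least like their group. The call held in 18 of 19 alternatives, with adjusted p-values from 0.00141 to 0.0548. Monocyte and macrophage markers moved with Kdr: 6 of 10 were called higher and 0 lower at 8wk, with sums of 178 to 1150 CPM in ME and 173 to 860 CPM in control libraries, and none of the 10 at 0 in either group. The ME library lowest in Kdr, replicate 4, was also lowest in these markers (178 CPM), and the control library highest in Kdr, replicate 1, was highest in them (860 CPM). Endothelial markers had the same libraries at these ends, with 8.4 CPM in ME replicate 4 and 11.4 CPM in control replicate 1. Of 10 tested, 2 were called higher and 0 lower, with sums of 8.4 to 15.2 CPM in ME and 4.98 to 11.4 CPM in control libraries. Megakaryocyte and platelet markers were highest of their group in both libraries (363 and 807 CPM). Of 11 tested, 0 were called higher and 1 lower. The part of these lists in the Kdr result was not tested.

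Robo4 measured 5.82, 8.46, 10 and 17.3 CPM in 8wk ME cells and 8.86, 5.71, 3.91 and 6.97 CPM in controls. The ranges overlapped, and the log2 fold change was 0.71 ± 0.33 (SE, 95% interval 0.02 to 1.39, adjusted p = 0.117); without ME replicate 4 it was 0.35 (adjusted p = 0.465). Esam ran from 21.8 CPM (replicate 1) to 77.5 CPM (replicate 4) in ME cells, around a control range of 37.7 to 49.5 CPM. Tie1 (62.3 to 119 against 55.2 to 92.7 CPM), Eng (49.3 to 97.8 against 57.4 to 86.1 CPM) and Pecam1 (55.1 to 86.3 against 49.8 to 57.9 CPM) had the same 2 ME libraries at their ends. Sox18 was low in both groups, at 0.271 to 0.627 CPM in ME and 0.279 to 0.472 CPM in control cells. Cdh5 held 12 counts in all over the 4 ME libraries and 16 over the 4 controls.

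**Figure D3:**
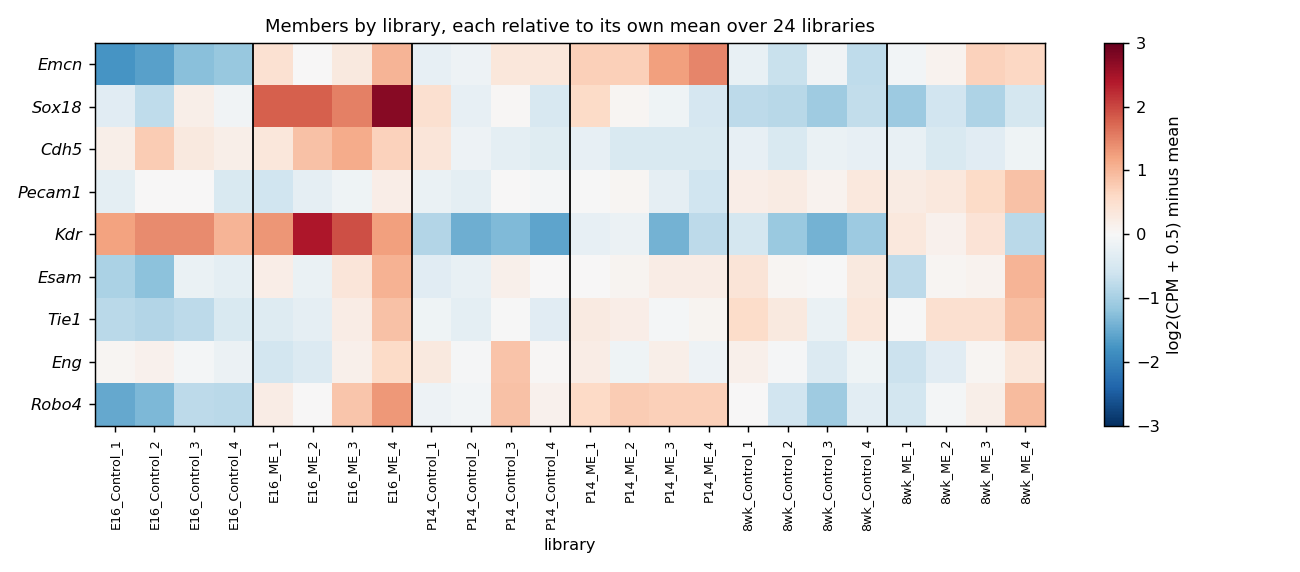
Each gene (rows) in each of the 24 libraries (columns, in groups of 4), as log2(CPM + 0.5) minus the gene's own mean over all libraries; red is above and blue below that mean. The E16 ME columns are red for Sox18 and the E16 columns for Kdr, and 8wk ME replicate 4 is redder than replicate 1 for Esam, Robo4 and Eng.

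The difference between the ME effects at 2 ages was tested directly. These differences share libraries with the comparisons above. Between 8wk and E16 the effect on Sox18 was called smaller at 8wk, by -2.58 ± 0.57 on the log2 scale (SE, 95% interval -3.76 to -1.41, adjusted p = 0.0278), and it was the 1 gene of the 9 called in edgeR, where 0.85% of all genes were called and 0.391% called lower. The call held in 16 of 27 alternatives, over which the adjusted p of Sox18 ran from 0.00155 to 0.0773. Among the fits that lost it were those without E16 ME replicate 4 (-2.22, adjusted p = 0.0709) and without the 4 libraries least like their group (-2.13, adjusted p = 0.0669). It was also lost in limma-voom (-2.59, adjusted p = 0.0773) and with only the groups compared (-2.57, adjusted p = 0.0539). Emcn, at -1.23 ± 0.36 (SE, adjusted p = 0.102), did not pass in edgeR, and passed in DESeq2 (-1.2, adjusted p = 0.043). The intervals for Esam (-1.86 to -0.14), Tie1 (-1.35 to -0.06) and Robo4 (-2.16 to -0.21) lay below 0, with adjusted p-values of 0.258, 0.291 and 0.234.

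Between P14 and E16, edgeR called 0 of the 9 genes, where 0.0211% of all genes were called. At an unadjusted p under 0.05 there were 4 (Emcn, Sox18, Cdh5 and Robo4), against 4.69% of all genes, and DESeq2 called 1 and limma-voom 0. Cdh5 passed the filter on low counts only through the E16 libraries and held 4, 0, 0 and 0 counts in P14 ME cells. It is therefore no separate support among the 4. The estimate for Sox18 was -2.68 ± 0.54 (SE, unadjusted p = 5.57e-05, adjusted p = 0.132), and DESeq2 gave -2.69 (adjusted p = 0.00197). Emcn differed by -1.05 ± 0.36 (SE, adjusted p = 0.814) and Robo4 by -1.43 ± 0.47 (SE, adjusted p = 0.746). Between 8wk and P14 edgeR, DESeq2 and limma-voom each called 0 of the 9, where edgeR called 0.301% of all genes, and 0 had an unadjusted p under 0.05, against 11.6% of all genes. For Emcn that difference was -0.17, with a 95% interval of -0.91 to 0.57, and for Kdr it was 0.38, with an interval of -0.62 to 1.37.

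The control libraries were compared between ages. From E16 liver to P14 marrow, Emcn and Robo4 were higher and Kdr was lower, 3 of the 9 genes, where 15.1% of all genes were called. Emcn rose 3.14-fold, from 2.67 to 4.46 CPM in the E16 libraries to 8.7 to 13.3 CPM at P14 (log2 fold change 1.65 ± 0.26, SE, adjusted p = 1.13e-04). Robo4 rose 2.73-fold, from 2.7 to 4.86 CPM to 7.8 to 16.7 CPM (1.45 ± 0.34, SE, adjusted p = 0.0047). Kdr fell 7.34-fold, from 10.2 to 13.7 CPM to 1.27 to 2.41 CPM (-2.88 ± 0.36, SE, adjusted p = 5.62e-06). The ranges of all 3 were separate between the ages, as were those of Tie1, which did not pass (0.54 ± 0.22, SE, adjusted p = 0.105); 24.5% of all genes tested had separate ranges. Marker lists of other cells were also counted between E16 and P14 controls. Of 10 monocyte and macrophage markers 9 were called lower and 0 higher (median log2 fold change -3.59, sums of 482 to 1380 CPM at E16 and 64.5 to 123 CPM at P14, with C1qa and C1qb at 0 at P14). Among them Fcgr1 averaged 12.2 CPM at E16 and 1.19 CPM at P14. Fcgr1 was singled out as the gene whose level ran closest with Kdr over all libraries, these included, so its fall is no separate observation. Of 11 megakaryocyte and platelet markers tested 8 were called lower and 0 higher (sums of 549 to 1100 and 288 to 360 CPM, with Gp1bb at 0 at P14), and of 10 endothelial markers tested 5 lower and 0 higher (sums of 17.7 to 20.1 and 7.7 to 8.88 CPM, with Cldn5 at 0 at E16 and Mmrn2 and Aplnr at 0 at P14). Their part in the values of Kdr, Emcn and Robo4 was not tested.

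From P14 to 8wk, both from marrow, Sox18 was the 1 gene called, where 12.6% of all genes were called and 5.58% called lower. It was 2.74-fold lower at 8wk, at 0.446, 0.419, 0.279 and 0.472 CPM against 1.76, 0.867, 1.17 and 0.658 CPM at P14, with separate ranges (8.22% of all genes tested were separate in this direction). The log2 fold change was -1.45 ± 0.4 (SE, adjusted p = 0.0208), and leaving out P14 control replicate 1, P14 control replicate 3 or 8wk control replicate 3 ended the call (adjusted p = 0.0677, 0.0602 and 0.0758). Kdr, low at P14, was also low at 8wk (0.37 ± 0.34, SE, 95% interval -0.34 to 1.08).

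From E16 to 8wk 6 of the 9 genes were called, where 23.3% of all genes were called: Emcn, Tie1 and Esam were higher and Kdr, Sox18 and Cdh5 lower at 8wk. Tie1 rose 2.01-fold, from 33.9 to 45.7 CPM to 55.2 to 92.7 CPM (1 ± 0.22, SE, adjusted p = 0.00208). Emcn rose 2.15-fold (1.11 ± 0.26, SE, adjusted p = 0.00328) and Kdr fell 5.68-fold (-2.51 ± 0.35, SE, adjusted p = 1.73e-05). The calls of Emcn, Tie1 and Kdr held in each of 19 alternatives. Those of Esam (0.81 ± 0.29, SE, adjusted p = 0.0494), Sox18 (-1.16 ± 0.41, SE, adjusted p = 0.0415) and Cdh5 (-2.4 ± 0.83, SE, adjusted p = 0.038) lay near the threshold, and each was lost when any 1 of the 8wk control libraries was left out. Cdh5 held 64 counts over the 4 E16 control libraries and 16 over the 4 8wk control libraries. It passed the filter on low counts only through the E16 libraries. Its call as lower at 8wk therefore rests on the age that admitted it, and it is no separate support among the 6. The same marker lists were counted from E16 to 8wk. Monocyte and macrophage markers had 6 of 10 called lower and 0 higher (median -2.21, sums of 173 to 860 CPM at 8wk). Fcgr1, singled out by its likeness to Kdr over these same libraries, averaged 1.15 CPM at 8wk. Megakaryocyte and platelet markers had 7 of 11 lower and 0 higher (sums of 342 to 807 CPM at 8wk), and endothelial markers 3 of 10 lower and 0 higher (sums of 4.98 to 11.4 CPM at 8wk); none of the 3 lists had a gene at 0 over the 8wk controls. Their part in the falls of Kdr, Sox18 and Cdh5 and in the rises was not tested.

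**Figure D4:**
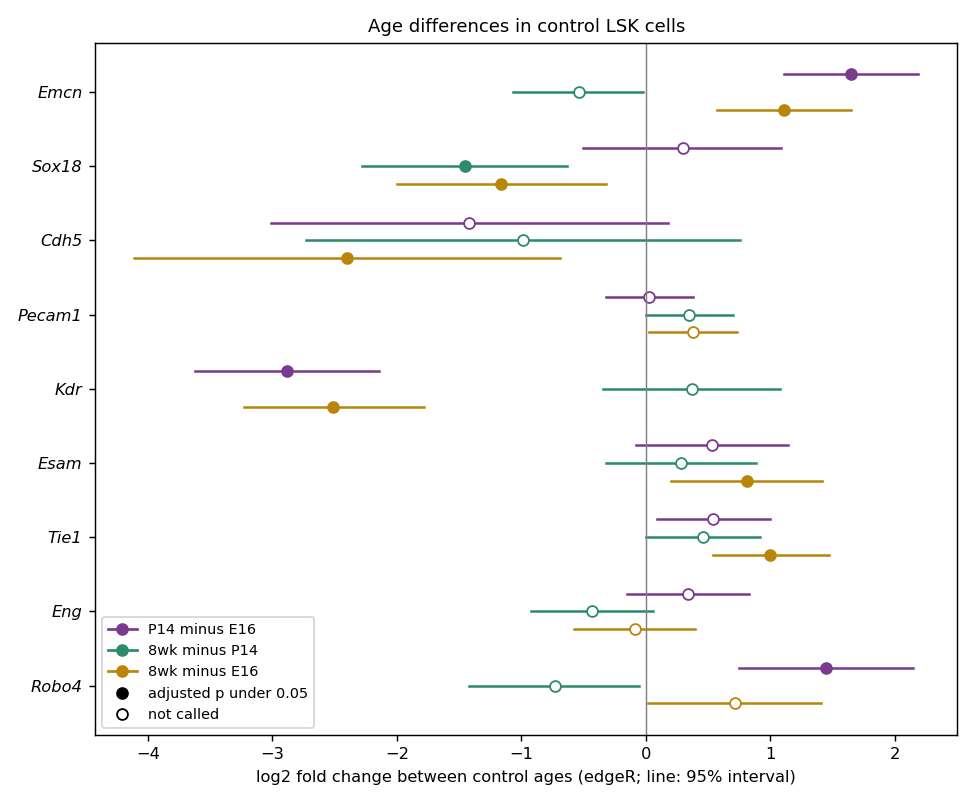
Log2 fold change between ages in control LSK cells for the 9 genes (rows), from edgeR, with lines for 95% intervals; colours are P14 minus E16, 8wk minus P14 and 8wk minus E16, and filled circles have an adjusted p under 0.05. Kdr lies far to the left in both comparisons with E16 (-2.88 and -2.51), and Emcn lies to the right (1.65 and 1.11).

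Across the 6 groups the highest mean of Emcn was in P14 ME cells, 22.2 ± 6.06 CPM (SD, n = 4), followed by E16 ME, 8wk ME, P14 control and 8wk control, each with a range of mean ± SD that met its neighbour's in that order, and then E16 control cells at 3.55 ± 0.845 CPM, which stood apart. Sox18 stood apart in E16 ME cells, 6.2 ± 2.79 CPM, from P14 ME cells, 1.19 ± 0.539 CPM, and all lower groups. The 2 E16 groups were highest for Kdr, at 18.1 ± 7.38 CPM in ME and 12.3 ± 1.67 CPM in control cells, apart from the next, 8wk ME, at 5.13 ± 1.81 CPM. Tie1 was lowest in E16 control cells (38 ± 5.24 CPM), apart from P14 controls (55.5 ± 5.91 CPM), which stood apart from P14 ME cells (68.9 ± 6.42 CPM). Pecam1 was highest in the 8wk groups, with 8wk controls (53.8 ± 3.4 CPM) apart from P14 controls (42.2 ± 3.97 CPM). The other 39 of 45 neighbouring pairs of groups, over all 9 genes, had ranges of mean ± SD that met, among them every pair for Eng, Esam, Robo4 and Cdh5.

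Per length of exon, Eng was the most abundant of the 9 in E16 control cells, at 19 ± 1.83 RPKM (CPM per kb of exon, SD, n = 4). Esam (8.59 ± 2.86 RPKM), Tie1 (7.73 ± 1.06 RPKM) and Pecam1 (6.62 ± 1.07 RPKM) came next, and their ranges of mean ± SD met. Kdr stood at 1.36 ± 0.185 RPKM. Robo4, Emcn and Sox18, the 3 genes with the largest folds at E16, were low in those controls, at 0.73 ± 0.21, 0.656 ± 0.156 and 0.555 ± 0.227 RPKM. In E16 ME cells they reached 2.7 ± 1.15, 2.72 ± 0.868 and 3.83 ± 1.72 RPKM, still below the 14.8 ± 6.38 RPKM of Tie1. Cdh5 was the lowest gene in every group, at 0.163 ± 0.0625 RPKM or less.

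The other genes of the pathways in which the 9 act were counted from lists drawn up by function. For these counts, 13.3%, 12.7% and 14.2% of all genes tested were called higher at E16, P14 and 8wk, and 8.47%, 9.35% and 14.3% were called lower, so 1 or 2 calls among 9 or 11 genes lie near the share over all genes. Of 9 tested VEGF family ligands and receptors, the system of Kdr, 2 were called higher and 1 lower at E16, 3 and 1 at P14, and 4 and 0 at 8wk. Vegfb, a ligand of the related receptor Flt1, was higher at each age, with log2 fold changes of 2.12, 2.48 and 2.14 (adjusted p = 7.64e-04, 1.51e-04 and 5.79e-04). The co-receptor Nrp1 was lower at E16 (-1.57, adjusted p = 0.0382) and P14 (-2.38, adjusted p = 0.00496). Vegfa, the main ligand of Kdr, was higher at 8wk (1.15, adjusted p = 0.0331). Its mean was also higher in ME than in control cells at the earlier ages. It stood at 13 ± 1.83 against 9.1 ± 5.73 CPM at E16 and 13.1 ± 1.66 against 6.74 ± 2.97 CPM at P14 (SD, n = 4). The list's median log2 fold change was 0.59, 0.96 and 1.15 at the 3 ages, against 0.02, 0.03 and -0.02 over all genes.

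The angiopoietin system of Tie1 gave few calls. Of 6 genes tested, edgeR called 0 at E16 (3 at an unadjusted p under 0.05, against 33.9% of all genes, and 0 in DESeq2 and in limma-voom), 1 lower at P14 and 0 at 8wk (0 at an unadjusted p under 0.05, against 39.3% of all genes, and 0 in either other tool). The gene called at P14 was Angptl2 (-0.87, adjusted p = 0.0143), which encodes an angiopoietin-like protein and not an angiopoietin or a Tie receptor. Tek, the receptor partner of Tie1, stood at 14.7 ± 5.8 CPM in E16 ME and 9 ± 0.777 CPM in E16 control cells (SD, n = 4, adjusted p = 0.0753). Its ligand Angpt1, which LSK cells themselves hold, stood at 113 ± 24.9 and 80.7 ± 5.13 CPM (adjusted p = 0.109).

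Of 18 genes tested around endoglin, BMP and TGF-beta, 8 were called higher at E16, 5 at P14 and 8 at 8wk, and 0 were called lower at any of the 3 ages. The inhibitory Smads were called at each age: Smad6 had log2 fold changes of 3.53, 3.54 and 2.67 (adjusted p = 5.92e-04, 5.46e-04 and 0.00591) and Smad7 of 2.11, 2.65 and 1.91 (adjusted p = 0.00108, 1.10e-04 and 0.00185). Smad7 stood at 5.86 ± 2.51 CPM in E16 ME and 1.35 ± 0.414 CPM in E16 control cells (SD, n = 4). Larger or similar values stood elsewhere in the list: Id3, a target of BMP signalling, had 4.2 at P14 (adjusted p = 4.19e-04, 0.496 to 11.8 CPM over the ME libraries) and the endoglin partner receptor Acvrl1 had 2.83 at 8wk (adjusted p = 0.00954). Acvrl1 averaged 3.03 CPM in ME and 4.16 CPM in control cells at E16, and 1.26 and 0.721 CPM at P14. Id1 averaged less in ME than in control cells at each age, though it was not called lower. Its means were 17.6 against 24.4, 10.7 against 12.1 and 7.96 against 10.2 CPM. Tgfbr3, the co-receptor betaglycan and a relative of endoglin, was higher at E16 (1.07, adjusted p = 0.00227), while Eng was not called in any of the 9 comparisons. The list's medians were 0.56, 0.34 and 0.44.

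In the Slit-Robo system of Robo4, 11 genes were tested, of which 1 was called higher at E16, 1 higher and 1 lower at P14 and 3 higher at 8wk, with medians of 0, -0.19 and 0.14. The E16 gene was Srgap1 (2.04, adjusted p = 0.00315), a GTPase-activating protein that acts downstream of Robo receptors. Robo3, another Roundabout receptor, was higher at P14 (1.17, adjusted p = 0.0186) and the ligand Slit2 at 8wk (2.64, adjusted p = 0.0102).

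Among 18 junction and adhesion partners of Cdh5, Esam and Pecam1, 5 were called higher and 0 lower at E16, 3 and 1 at P14, and 4 and 2 at 8wk, with medians of 0.27, 0.16 and 0.13. Cdh2, which encodes N-cadherin, was higher in ME cells at each age: 46 ± 11.8 against 0.715 ± 0.156 CPM at E16, 25.8 ± 3.72 against 0.235 ± 0.156 CPM at P14 and 12.7 ± 2.38 against 0.0107 ± 0.0215 CPM at 8wk (SD, n = 4, adjusted p = 1.33e-09, 2.86e-10 and 1.41e-10). Neither Cdh5 nor Cdh1, which encodes E-cadherin, was called in those 3 comparisons. Jup, the plakoglobin that links cadherins to the cytoskeleton, was higher at E16 (0.72, adjusted p = 0.0144) and 8wk (0.81, adjusted p = 0.00578). Cd34, a sialomucin like Emcn, was lower at P14 (-0.57, adjusted p = 4.35e-04), where Emcn was higher.

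Of 18 transcription factors tested that endothelium and blood stem cells share, 9 were called higher at E16, 8 at P14 and 9 at 8wk, and 0 lower at any of the 3 ages, with medians of 0.38, 0.48 and 0.45. Mecom, a regulator of blood stem cells, had log2 fold changes of 2.38, 1.35 and 0.93 (adjusted p = 7.66e-06, 0.00132 and 0.0144). Lmo2, a bridging factor of the stem cell complex with Tal1, had 1.02, 0.9 and 0.54 (adjusted p = 1.25e-04, 3.67e-04 and 0.0162). Ets1, an ETS factor, was higher at E16 (1.58, adjusted p = 6.62e-05) and P14 (1.31, adjusted p = 3.71e-04). The ETS factors Ets2, Etv6 and Elk3 were higher at 8wk (0.46, 0.44 and 0.63, adjusted p = 0.0166, 0.0157 and 0.00111). They were not called at E16 or P14. Erg, Fli1 and Elf1, ETS factors too, did not pass at any of the 3 ages. Their log2 fold changes at E16 were 0.26 ± 0.27, 0.02 ± 0.11 and 0.18 ± 0.1 (SE).

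Of 20 tested surface and secreted genes shared by the 2 lineages, 7 were called higher and 0 lower at E16, 5 and 1 at P14, and 4 and 1 at 8wk, with medians of 0.37, 0.34 and 0.1. Procr, the endothelial protein C receptor and a stem cell marker, was higher at each age (1.48, 0.8 and 0.74, adjusted p = 1.54e-04, 0.0182 and 0.0227). Thbd, the thrombin receptor thrombomodulin, was higher at E16 (1.84, adjusted p = 3.83e-05) and P14 (1.79, adjusted p = 4.26e-05). Podxl, a sialomucin like Emcn, was lower at 8wk (-2.02, adjusted p = 0.00162).

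The genes whose level followed each of the 9 most closely over the 24 libraries were read off as a description, from 9771 or 9772 genes with a mean of at least 5 CPM; groups, depth and the libraries that stood apart are common to all of these values. Emcn ran closest with Pglyrp2 (Pearson r = 0.94), Eya1 (0.93) and Fstl1 (0.92), and Robo4 also with Pglyrp2 (0.93), then Mecom (0.91) and Pdk2 (0.89). Kdr ran closest with Fcgr1 (0.96), an Fc receptor of monocytes and macrophages, Ifi209 (0.96) and Spib (0.95), an ETS factor of B cells and plasmacytoid dendritic cells. Tie1 ran closest with Procr (0.88), Stat4 (0.88) and Gstm7 (0.87), and Esam with Ttc30b (0.86), Tgfbr3 (0.82) and Pcmtd2 (0.81). Sox18 ran with Emid1 (0.87), Pcdh7 (0.86) and Nhlrc3 (0.85), and Eng with Osbpl7 (0.91), Madd (0.91) and Zfp687 (0.9). Pecam1 ran with Cttn (0.85), Irak3 (0.84) and Kdm3a (0.84), and Cdh5 with Daxx (0.86), Ggta1 (0.85) and Igf2bp1 (0.84).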

How the data were processed

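RNA-seq counts were read for 24 LSK libraries, grouped by their titles. The authors deposited raw counts per Ensembl gene, and per the submitters' processing notes used STAR 2.7.9a, GRCm38 and featureCounts 2.0.3 (Subread). Strand setting, annotation release and filters are not given in the sources used here. Even numbers made up 63.6% (median library) of the counts between 1 and 20, as counting each mate of a pair would give, so counts are not independent molecules and limits from counts cover counting error only. The 55774 lines repeat 168 identifiers with the same counts, which were used once each, leaving 55487 genes. Coordinates come from GENCODE M21 (GRCm38).

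All 24 libraries were fitted together, with 1 mean per group, in edgeR 4.0.16 (R 4.3.3; quasi-likelihood, robust option, TMM scaling), after filterByExpr at a minimum count of 10 (18931 genes). A gene was called where its Benjamini-Hochberg adjusted p was under 0.05, adjusted over all genes tested within each of 9 comparisons. CPM use TMM-scaled library sizes, and errors are SD over 4 libraries or SE of the log2 fold change. The fit was tested on simulated data, with changed genes drawn at random from those tested and raised in E16 ME cells. It called 55 of 100 genes raised 2-fold and 81 of 100 raised 4-fold, with 4 false calls. A gene that did not pass may therefore still differ by such a fold. Named genes are all 9 members, up to 4 called genes per list with the smallest adjusted p (marker genes, uncalled partners, Acvrl1, Ets2, Etv6 and other ages of a named gene were chosen after their values were seen), and the 3 genes nearest each member. The members and lists were chosen with earlier results of these data known, and the promoter motifs after results were seen.

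Alternatives were DESeq2 1.42.0 size factors, library size alone, GC correction, no filter, at least 1 CPM in 4 libraries, DESeq2, limma-voom (limma 3.58.1), only the groups compared, the replicate number as a block, and leaving out each library. Leaving out the 4 libraries least like their group, and a block with only the groups compared, were added after the data and first results were seen. Deviations of same-numbered ME and control libraries from their group means correlated at 0.25, 0.19, 0.13 and 0.34 at P14. At E16 these values were -0.07, -0.02, -0.12 and -0.02, and at 8wk 0.02, -0.21, -0.23 and 0.12. Some differently numbered P14 libraries correlated as much, such as ME replicate 2 with control replicate 1 (0.25) and ME replicate 3 with control replicate 4 (0.32). The numbers were read as a possible pairing at P14 only, from the values and not from a label, and the values do not settle it.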

Additional observations from a re-analysis of the deposited data

Results flagged for a closer look

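Sox18 in E16 ME replicate 4 stood far from the other 3 libraries of its group, at 10.3 CPM, where the next was 5.18 CPM and the lowest 4.17 CPM. Cdh5 in P14 ME replicate 1 stood at 0.0801 CPM, which is 4 counts, where the other 3 libraries held 0. These are 2 of 54 sets of 4 values examined for a value far from the rest, and chance gives such a value in about 1 of 20 sets. The ME effect on Sox18 differed between ages in a direct test, by -2.58 (log2, 8wk minus E16, adjusted p = 0.0278 in edgeR). That call held in 16 of 27 alternatives.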

How the results depend on the processing

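Of 1736 values of single genes under the alternatives, 1664 kept their direction where called and their side of the threshold, 53 lost the call, 19 gained it and 0 called values reversed; the cause of a change was not tested. At E16 each alternative other than leaving out a library called 5 of the 9 genes, and leaving out 1 library gave 4 to 5. At P14 (1 called) DESeq2 gave 3, the replicate block 2 and leaving out the 4 least alike libraries 2, with 1 to 2 when single libraries were left out. At 8wk (2 called) the replicate block with only the groups compared gave 0 (Kdr 1.26, adjusted p = 0.0548; Emcn 0.86, adjusted p = 0.0828), and single libraries 1 to 2. For P14 minus E16 (0 called) GC correction and DESeq2 each gave 1. For 8wk minus E16 (1 called) DESeq2 and the replicate block over all libraries each gave 2 (the block added Emcn, -1.28, adjusted p = 0.0173), while limma-voom, only the groups compared, the block with only those groups and leaving out the 4 libraries gave 0, and single libraries 0 to 2. For control P14 against E16 (3 called) the block with only the groups compared gave 5. For control 8wk against P14 (1 called) GC correction gave 3, limma-voom and the block with only the groups compared 0, the 4 libraries left out 2 and single libraries 0 to 1. For control 8wk against E16 (6 called) no filter gave 3 and single libraries 3 to 4. The blocked fits moved no other count of the 9 genes by over 1.5 times.

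Counts of all genes called moved more. At E16 there were 4125 and 2339 with the block and only the groups compared. At 8wk there were 5392, against 2907 with only the groups compared, 1819 with the block as well and 3433 without 8wk control replicate 3. The P14 minus E16 count of 4 became 29 in DESeq2 and 14 without the 4 libraries (1 to 5 without single libraries). The 8wk minus P14 count of 57 became 298 in DESeq2, 678 without the 4 libraries, 0 with only the groups compared and 1 with the block as well (4 to 369 without single libraries). The 8wk minus E16 count of 161 became 603 in DESeq2, 946 without the 4 libraries, 55 with only the groups compared, 50 with the block as well, 357 with the block over all libraries, 107 with no filter and 250 at 1 CPM (48 to 896 without single libraries). The control 8wk against P14 count of 2384 became 1092 with only the groups compared, 540 with the block as well, 1483 with no filter and 3748 without the 4 libraries (929 to 3115 without single libraries). Library size alone moved the median of all genes to 0.11 at E16 and at P14, and the share of calls that were higher from 61.1% to 74.6% at E16, from 57.5% to 70.5% at P14 and from 55.7% to 43.2% for control 8wk against P14; GC correction moved it from 75% to 50% for P14 minus E16, where 4 and 6 genes were called. Depth limits Cdh5 most: in 5 libraries it held 0 counts, and 3 counts there are 0.0596 to 0.0786 CPM.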
